A study of Mus musculus with 12 samples.

Results

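Small nucleolar RNA (snoRNA) host genes are genes whose introns, and sometimes exons, hold the sequences of snoRNAs. The 9 host genes described here are long non-coding RNA genes, of 55573 genes in the count table. They are Snhg1, Snhg3, Snhg6, Snhg8, Snhg12, Snhg14, Snhg17, Snhg20 and Gas5. They were chosen by gene symbol, and all 9 passed the filter on low counts that left 17126 genes for testing. RNA immunoprecipitation sequencing (RIP-seq) was performed on primary hippocampal neurons of newborn C57BL/6 mice, a wild-type inbred strain, after 14 days in culture. The 12 libraries formed 4 groups of 3 replicates: RNA recovered with an antibody against endogenous YTHDF1, YTHDF2 or YTHDF3, and input RNA from a fraction of the same kind of lysate, for which no antibody was used. The comparisons ask which host gene RNAs each YTHDF protein holds relative to input, and whether the proteins differ. The 3 RIPs of a replicate were made from 1 split lysate with 1 shared input, the hippocampi of a litter were pooled, and a pulldown with a control antibody was not analysed here, so every change is against input alone.

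A snoRNA is usually cut out of an intron of its host transcript and then works in the nucleus, where box C/D snoRNAs guide ribose methylation and box H/ACA snoRNAs guide pseudouridylation of ribosomal RNA. The scaRNAs are relatives that act in Cajal bodies. The spliced remainder of many non-coding host transcripts reaches the cytoplasm and carries little or no open reading frame. It often starts with a run of pyrimidines like the mRNAs of ribosomal proteins, and is degraded during translation by nonsense-mediated decay (NMD). The YTHDF proteins are cytoplasmic readers of N6-methyladenosine (m6A), a methyl mark on adenosine. In neurons the best known host gene is Snhg14, the long imprinted transcript that runs from the Prader-Willi region into the antisense strand of Ube3a.

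The deposited counts do not separate spliced from unspliced RNA, and this limits the name of the group. Fragments were counted over every annotated exon of a gene, and in Snhg1, Snhg8 and Snhg12 the exons of all isoforms together cover the whole span of the gene. They cover 94.8% in Snhg20, 91.3% in Gas5, 89.5% in Snhg17, 53.1% in Snhg6, 17.4% in Snhg3 and 3.9% in Snhg14. A fragment that overlapped several genes was counted for each, so a fragment of a mature snoRNA that lies within annotated exons is also a count of its host. Of the 18 annotated isoforms of Snhg1, 14 are classed as retained intron, and 20 of the 25 of Gas5.

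Counts on small RNA genes that overlap host exons on the same strand amounted to most of the input counts of Snhg1, Snhg3 and Snhg20. They were a small part or none of those of Snhg6, Snhg14 and Snhg17. Of these small RNA genes, 5 are shown, and Gm26083, Snora24, Gm26003 and Gm22357 were chosen after values were seen. Each lies wholly within the exons of its host, as do other small RNA genes that are not shown. Capitals mark a CTGA (D box) within the last 20 bases, a TGATGA (C box) within the first 20 bases, or an ACA within the last 10 bases. Snord22 lies in Snhg1 at chr19:8725866-8725991 on the plus strand, the scaRNA gene Gm26083 in Snhg20 at chr11:117077243-117077435 on the plus strand, and Snora24 in Snhg8 at chr3:123507937-123508066 on the minus strand. The snoRNA gene Gm26003 lies in Snhg17 at chr2:158358360-158358472 on the minus strand, and the snoRNA gene Gm22357 in Gas5 at chr1:161036057-161036139 on the plus strand, all in build GRCm38.
Snord22: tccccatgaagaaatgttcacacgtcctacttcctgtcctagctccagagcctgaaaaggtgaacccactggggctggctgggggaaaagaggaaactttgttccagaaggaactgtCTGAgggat
Gm26083: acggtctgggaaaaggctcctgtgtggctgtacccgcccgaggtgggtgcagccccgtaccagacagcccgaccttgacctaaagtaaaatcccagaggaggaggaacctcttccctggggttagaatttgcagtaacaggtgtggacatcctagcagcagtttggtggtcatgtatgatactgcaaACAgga
Snora24: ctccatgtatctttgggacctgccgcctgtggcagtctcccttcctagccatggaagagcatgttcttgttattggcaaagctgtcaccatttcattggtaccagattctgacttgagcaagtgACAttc
Gm26003: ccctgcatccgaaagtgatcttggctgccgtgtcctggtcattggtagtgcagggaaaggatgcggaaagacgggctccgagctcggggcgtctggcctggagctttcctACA
Gm22357: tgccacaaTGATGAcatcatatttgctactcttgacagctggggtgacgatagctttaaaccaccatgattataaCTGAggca

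The libraries held between 6020072 and 38909592 counts. The 5 neuron markers (Rbfox3, Map2, Tubb3, Snap25 and Syt1) summed to between 2362 and 3316 CPM (the count of a gene scaled to a common library size) in the input libraries, and all 5 were tested. The 5 astrocyte markers summed to between 289 and 2638 CPM over the 3 inputs, and to between 299 and 1193, 656 and 1311, and 196 and 1485 CPM over the libraries of the YTHDF1, YTHDF2 and YTHDF3 RIPs, whereas the oligodendrocyte markers summed to at most 22.2 CPM, with 2 of 4 tested, and the microglia markers to at most 6.21 CPM, with 1 of 5 tested. No marker was at 0 in every input library. In cultures of mixed cells, fewer cells of a type and less RNA per cell cannot be told apart, and the part of the astrocyte RNA in the results was not tested. Among the RIP libraries, the 3 of YTHDF1 differed most for the host genes. Replicate 1 of the YTHDF1 RIP held the highest level of Snhg1, Snhg3, Snhg12 and Snhg20 among all 12 libraries, and replicate 3 held the lowest level of each of the members other than Snhg14. A call on a host gene that was lost or gained without 1 of the YTHDF1 libraries, or a called value that moved by over 1.5 times, is given beside the result.

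In the input libraries the members were transcripts of moderate to low level. Per kilobase of annotated exon, the input level was 7.45 ± 0.734 CPM (SD, n = 3) for Gas5, 7.02 ± 2.46 for Snhg1, 7.02 ± 0.596 for Snhg6, 6.07 ± 1.08 for Snhg8 and 5.54 ± 0.548 for Snhg20. It was 3.64 ± 0.858 for Snhg14, 2.99 ± 0.337 for Snhg3, 2.80 ± 0.402 for Snhg12 and 0.998 ± 0.196 for Snhg17. Neighbours in this order lay within their spread of each other, apart from the steps from Snhg20 to Snhg14 and from Snhg12 to Snhg17. These levels include counts on small RNA genes within the exons. In input those were 70.7% to 83.9% of the count of Snhg1, 75.5% to 77.7% of Snhg20 and 54.8% to 79.2% of Snhg3. The order is therefore not one of host RNA without its small RNAs. Without correction for length, Snhg14 led with 94.9 ± 22.4 CPM, and the other members lay between 2.95 ± 0.332 CPM for Snhg3 and 28 ± 2.76 CPM for Gas5. The lowest single count of a member was 9, for Snhg6 in a YTHDF2 RIP library, so the low members rest on few fragments.

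**Figure D1:**
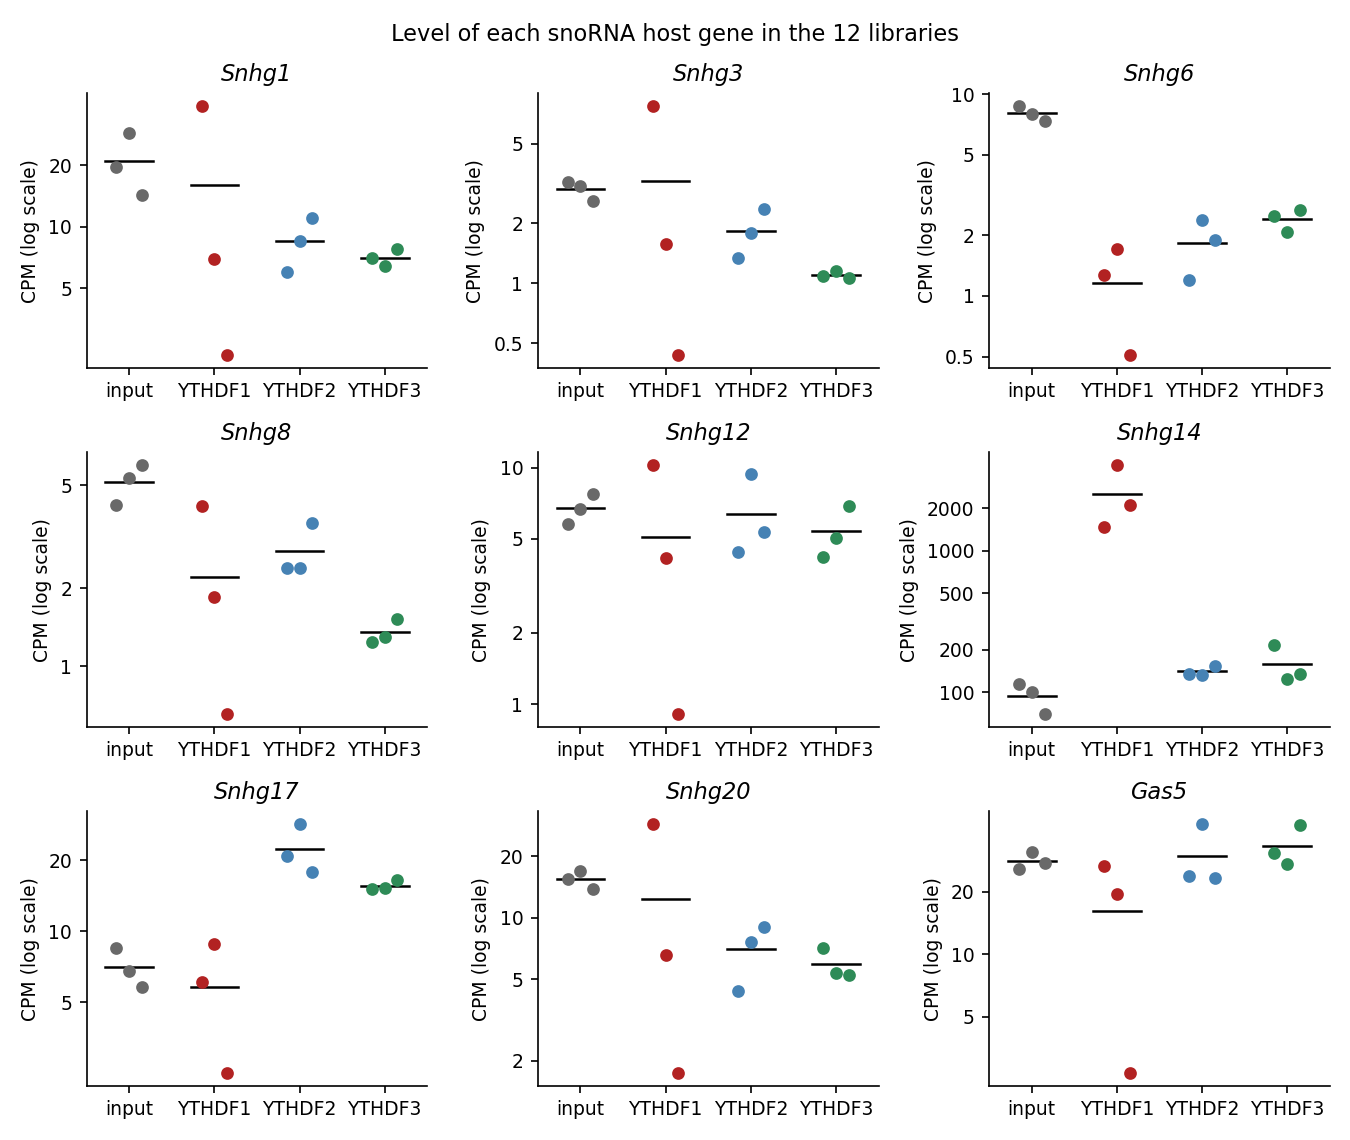
Level of each of the 9 host genes in CPM on a log axis, with a point for each library and a line at the mean of each group of 3. Snhg14 reaches 1463 to 4045 CPM in the YTHDF1 RIP against 70.1 to 114 CPM in input, Snhg6 is below input in all 9 RIP libraries, and Snhg17 is above input in the YTHDF2 and YTHDF3 RIPs.

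In the YTHDF1 RIP, 1 member was higher than input and 2 were lower. A gene was called at an adjusted p of at most 0.05 and a fold change of at least 1.25 against input, with edgeR's quasi-likelihood test over all genes. Of all genes tested, 27.2% were called higher and 25.8% lower in the YTHDF1 RIP. The median log2 fold change of the members was −0.41, against 0.02 over all genes tested.

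The member called higher was Snhg14 (chr7:59307924-59975759, minus strand), which spans 667836 bases and includes 208 snoRNA genes. Its level was 114, 101 and 70.1 CPM in input and 1463, 4045 and 2103 CPM in the YTHDF1 RIP. The lowest YTHDF1 RIP library lay far above the highest input library. The log2 fold change was 4.74 ± 0.41 (SE), a 26.7-fold rise, with an adjusted p of 8.52e-06 by edgeR, and 99.6% of the genes tested had a lower value. Per kilobase of exon the level reached 97.2 ± 51.5 CPM (SD, n = 3). When the trend of each library with gene length was removed, the log2 fold change of Snhg14 was 2.97, and without replicate 2 of the YTHDF1 RIP it was 4.15, and it was still called in both.

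The members called lower were Snhg6 and Snhg8. Snhg6 (chr1:9941959-9944118, minus strand), which hosts Snord87 in an intron, stood at 8.75, 7.98 and 7.39 CPM in input and at 1.27, 1.71 and 0.508 CPM in the YTHDF1 RIP. The groups did not overlap, and the log2 fold change was −2.83 ± 0.41 (adjusted p = 0.000178, edgeR), a 7.13-fold fall. With the length trend removed it was −2.12 and still called. Snhg8 (chr3:123507552-123508404, minus strand), the host of Snora24, stood at 4.19, 5.34 and 6.00 CPM in input and at 4.15, 1.85 and 0.651 CPM in the YTHDF1 RIP. Its highest RIP library nearly reached its lowest input library. The log2 fold change of Snhg8 was −1.29 ± 0.51 with an adjusted p of 0.0499 by edgeR, at the edge of the threshold. With the replicate number as a block it was −1.36 and the adjusted p 0.0641, so the call was lost. It was also lost when any 1 library other than replicate 1 of the YTHDF1 RIP was left out, with values of −0.80 to −1.42 and adjusted p of up to 0.104, and when the length trend was removed, at −0.26.

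The other 6 members did not pass in the YTHDF1 RIP. Snhg1 (chr19:8723475-8726443, plus strand) stood at 38.8, 6.92 and 2.36 CPM against 19.6, 28.7 and 14.2 CPM in input, so that 1 RIP library was above and 2 were below all inputs. Snhg20 (chr11:117076008-117078955, plus strand) showed the same split, with 28.8, 6.56 and 1.74 CPM against 15.5, 17.0 and 13.9 CPM in input. Snhg3 (chr4:132348014-132353686, minus strand), the host of Snora73a and Snora73b, did so as well, with 7.72, 1.57 and 0.435 CPM against 3.20, 3.07 and 2.57 CPM. The standard errors of these 3 log2 fold changes were 0.72, 0.69 and 0.73, larger than the changes themselves of −0.41, −0.36 and 0.06.

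Gas5 (chr1:161034422-161038539, plus strand), named for its rise in growth-arrested cells, hosts 10 annotated small RNA genes in 9 separate stretches. It ranged from 2.68 to 26.4 CPM in the YTHDF1 RIP and from 25.6 to 31.0 CPM in input. Snhg12 (chr4:132308623-132311024, plus strand), host of 5 annotated snoRNA genes in 4 separate stretches, ranged from 0.906 to 10.3 CPM and from 5.78 to 7.71 CPM. Snhg17 (chr2:158353700-158361580, minus strand), with 3 snoRNA genes inside, ranged from 2.50 to 8.85 CPM and from 5.78 to 8.52 CPM. The groups overlapped for each of these members. Their log2 fold changes were −0.81, −0.45 and −0.30 with adjusted p of 0.257, 0.572 and 0.528 in edgeR. Without replicate 1 of the YTHDF1 RIP, 5 members were called lower in place of 2, namely Snhg1, Snhg3, Snhg6, Snhg8 and Snhg20. The shares of all genes given for this RIP come from the fit of all libraries, not from this fit.

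In the YTHDF2 RIP, 1 member was higher than input and 1 was lower, while 15.7% of all genes tested were called higher and 19% lower. The median over the members was −0.69 and that over all genes 0.02 on the log2 scale. Snhg17 stood at 20.9, 28.5 and 17.9 CPM against 8.52, 6.81 and 5.78 CPM in input. Each RIP library was above each input library, and the log2 fold change of Snhg17 was 1.67 ± 0.37, a 3.17-fold rise with an adjusted p of 0.0055 in edgeR. Snhg6 stood at 1.2, 2.39 and 1.9 CPM, again below each of its input libraries. The log2 fold change of Snhg6 was −2.14 ± 0.40 (adjusted p = 0.0022, edgeR), a 4.4-fold fall, and −1.51 with the length trend removed, where it was still called.

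Snhg1, Snhg3, Snhg8 and Snhg20 also lay below all inputs in the YTHDF2 RIP but did not pass the test. Snhg1 ranged from 5.98 to 11.1 CPM and had a log2 fold change of −1.29 ± 0.74 with an adjusted p of 0.202 in edgeR. Snhg20 ranged from 4.39 to 9.05 CPM, with −1.14 ± 0.71, Snhg8 from 2.39 to 3.58 CPM, with −0.88 ± 0.51, and Snhg3 from 1.33 to 2.35 CPM, with −0.69 ± 0.76. Snhg14 was above all inputs at 135, 134 and 154 CPM, with a log2 fold change of 0.57 ± 0.36 and an adjusted p of 0.239 in edgeR. Gas5 and Snhg12 overlapped with input, at log2 fold changes of 0.09 ± 0.57 and −0.08 ± 0.62. Fitted with the input libraries alone, 4 members were lower in place of 1, as Snhg1, Snhg8 and Snhg20 passed (3 with the replicate block, without Snhg8), and without replicate 1 of the YTHDF1 RIP, Snhg1 passed at −1.29 (adjusted p = 0.027, edgeR). The shares of all genes given for this RIP belong to the joint fit of all libraries, not to these fits.

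In the YTHDF3 RIP, 1 member was higher and 2 were lower, beside 16.4% and 23% of all genes tested, and the median was −1.39 over the members and 0.05 over all genes. Snhg17 stood at 15.1, 15.3 and 16.6 CPM, above all inputs. Its log2 fold change was 1.15 ± 0.37 with an adjusted p of 0.0266 in edgeR, a 2.21-fold rise. The call was lost without Input replicate 2 (1.12, adjusted p = 0.0776), Input replicate 3 (1.07, adjusted p = 0.0735), YTHDF3 RIP replicate 2 (1.19, adjusted p = 0.0555) or YTHDF3 RIP replicate 3 (1.11, adjusted p = 0.064). Snhg6 stood at 2.49, 2.07 and 2.68 CPM, and its log2 fold change was −1.73 ± 0.38 (adjusted p = 0.00351, edgeR). Snhg8 stood at 1.24, 1.30 and 1.52 CPM, with −1.93 ± 0.50 (adjusted p = 0.0101, edgeR). Both were below all inputs, by 3.33-fold and 3.80-fold.

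Snhg1, Snhg3 and Snhg20 were also below all inputs in the YTHDF3 RIP, at 6.40 to 7.74, 1.06 to 1.15 and 5.26 to 7.11 CPM. Their log2 fold changes of −1.56 ± 0.73, −1.42 ± 0.73 and −1.39 ± 0.70 missed the threshold with adjusted p of 0.113, 0.146 and 0.139 in edgeR. These standard errors come from a spread shared with the YTHDF1 libraries. When the 3 YTHDF3 RIP and 3 input libraries were fitted alone, 5 members were called lower, namely these 3 with Snhg6 and Snhg8, and 2 were called higher, Snhg17 and Snhg14, both with and without the replicate number as a block. The same 5 were called lower in the joint fit without replicate 1 or without replicate 3 of the YTHDF1 RIP, and without its replicate 2 Snhg14 was called higher at 0.78 (adjusted p = 0.0281, edgeR). The shares of all genes given for this RIP belong to the joint fit of all libraries, so they do not apply to the calls in these other fits. When the length trend was removed, no member was called in either direction in the YTHDF3 RIP, and Snhg6 had −0.69 with an adjusted p of 0.119, Snhg8 −0.55 with an adjusted p of 0.429 and Snhg17 0.80 with an adjusted p of 0.130 in edgeR. Gas5 and Snhg12 had log2 fold changes of 0.24 ± 0.57 and −0.32 ± 0.61 and overlapped with input.

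**Figure D2:**
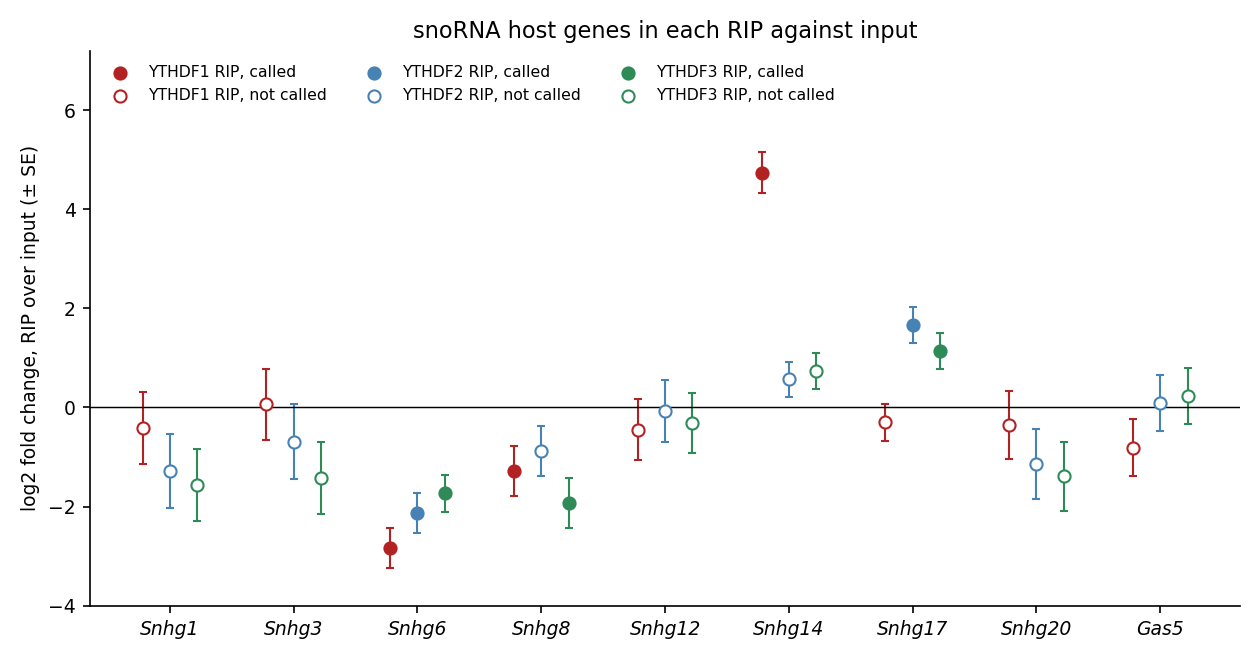
Log2 fold change of each host gene in each RIP over input with its SE, where filled points passed the threshold and open points did not. Snhg14 in the YTHDF1 RIP stands at 4.74, Snhg6 is filled and below 0 in all 3 RIPs, and the error bars of Snhg1, Snhg3 and Snhg20 reach 0.69 to 0.76 to each side over the 3 RIPs.

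The RIPs were then compared with each other, where a call also needed a fold change of at least 2. The 3 comparisons with input share the input libraries and these 3 share the RIP libraries, so their values are given side by side only. Between YTHDF1 and YTHDF2, 1 member was called higher in YTHDF1 and 1 lower, beside 11.4% and 6.1% of all genes tested. Between YTHDF1 and YTHDF3 it was 1 and 1, beside 10.8% and 3.63%. Between YTHDF2 and YTHDF3 no member was called higher or lower, beside 3.95% and 1.16%. The members that differed were Snhg14 and Snhg17.

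Snhg14 was higher in the YTHDF1 RIP than in the YTHDF2 RIP by 4.17 ± 0.40 on the log2 scale (adjusted p = 4.58e-05, edgeR) and than in the YTHDF3 RIP by 4 ± 0.40 (adjusted p = 9.08e-05, edgeR). With the length trend removed these differences were 2.98 and 3.09, and against YTHDF3 it was 3.25 with library size alone and 3.37 without replicate 2 of the YTHDF1 RIP, all still called. Snhg17 went the other way. Its log2 difference was −1.96 ± 0.38 against YTHDF2 (adjusted p = 0.00266, edgeR), and −1.44 ± 0.37 against YTHDF3 (adjusted p = 0.0167, edgeR), where it was −2.04 without replicate 2 of the YTHDF1 RIP and −2.18 with library size alone. Between YTHDF2 and YTHDF3, Snhg14 differed by −0.17 ± 0.36 and Snhg17 by 0.52 ± 0.36. For Snhg6 the log2 difference between YTHDF1 and YTHDF3 was −1.10 ± 0.40 (adjusted p = 0.0697, edgeR). It passed in 7 of the 14 other settings, with values down to −1.84 with library size alone (adjusted p = 0.00542, edgeR), so its call depends on the processing. For Snhg8 the log2 difference between YTHDF2 and YTHDF3 was 1.04 ± 0.51 (adjusted p = 0.233, edgeR). Without replicate 2 of the YTHDF1 RIP, Snhg6 also passed between YTHDF1 and YTHDF3, at −1.69 (adjusted p = 0.0172, edgeR). Without its replicate 3, Snhg3 and Snhg20 passed as higher in YTHDF1, at 2.05 and 1.57. When YTHDF1 and YTHDF3 libraries were fitted alone, Snhg17 did not pass (adjusted p = 0.087 at most, edgeR).

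The share of each host's count that fell on small RNA genes in its exons divided the members. In input it was 70.7% to 83.9% for Snhg1, 75.5% to 77.7% for Snhg20 and 54.8% to 79.2% for Snhg3. It was 9.2% to 21.4% for Snhg8, Snhg12 and Gas5, 3.2% to 12.5% for Snhg17 and at most 0.2% for Snhg14. The small RNA gene of Snhg6 does not overlap its exons, so its share was 0. A fragment of the host that runs across a small RNA gene is counted in both, so each share is an upper limit for the small RNA itself.

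Snord22 alone gave 192, 320 and 82 of the 257, 392 and 133 input counts of Snhg1, and Gm26083 gave 154, 180 and 101 of the 204, 232 and 130 of Snhg20. Most of the input count of each of these hosts thus overlapped 1 small RNA gene. Replicate 1 of the YTHDF1 RIP had the highest share of its group for all 7 hosts other than Snhg6 and Snhg14. In that library the share was 97.3% for Snhg1, 95.6% for Snhg20, 77.5% for Snhg12, 72.2% for Snhg8 and 62.9% for Gas5. In the other 2 YTHDF1 libraries it was 70.1% and 70.8% for Snhg1, and 25.7% and 39.2% for Gas5. In Snhg3 the library reached 101.5%, because part of Snora73a lies outside the exons.

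In the YTHDF3 RIP some hosts had lower shares than in input and others higher ones. Snhg20 had 17.1% to 22.4% and Snhg1 56.1% to 64.1%, both below all inputs. Gas5 had 49.0% to 55.7% in the YTHDF3 RIP against 17.0% to 19.0% in input, and Snhg8 had 59.4% to 82.9% against 12.7% to 21.4%. In the YTHDF2 RIP, Snhg20 had 31.4% to 39.4% and Gas5 34.9% to 44.7%, again without overlap with input. For Snhg17 the groups overlapped, with 7.2% to 13.1% over the 9 RIP libraries. These shares are described and were not tested.

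**Figure D3:**
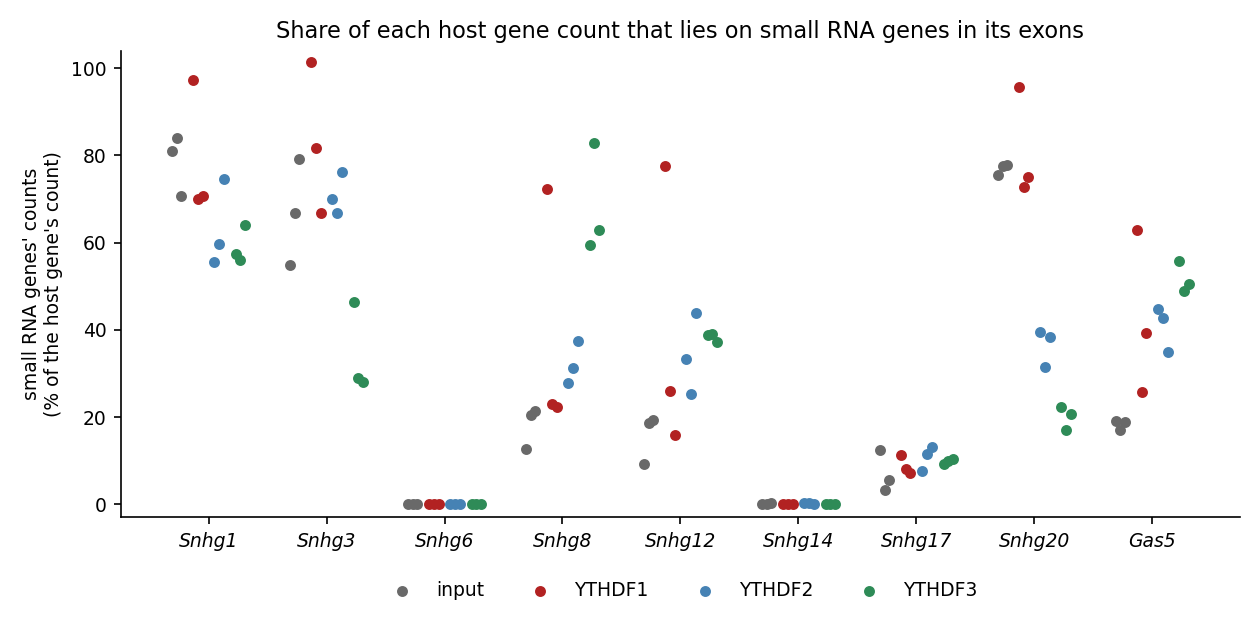
Share of each host gene's count that falls on small RNA genes within its exons, in percent, with a point for each of the 12 libraries. Snhg20 is at 75.5 to 77.7% in input and 17.1 to 22.4% in the YTHDF3 RIP, Gas5 is at 17.0 to 19.0% in input and 49.0 to 55.7% in the YTHDF3 RIP, and the single high red point of several hosts is replicate 1 of the YTHDF1 RIP.

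When the counts of all small RNA genes were taken off the hosts, a step chosen after the data were seen, the YTHDF1 RIP had 7 members called lower in place of 2, beside 1 called higher. The step changed the counts of the members alone. It also took off host fragments that run across a small RNA gene, and it was not combined with removal of the length trend. On whole counts, 25.8% of all genes tested were called lower in this RIP and 27.2% higher. The remainder of Snhg1 was 3.73, 4.61 and 4.18 CPM in input and 1.04, 2.07 and 0.689 CPM in the YTHDF1 RIP, without overlap. Its log2 fold change became −1.74 ± 0.36 (adjusted p = 0.002, edgeR). The remainder of Snhg20 was 3.81, 3.81 and 3.11 CPM in input and 1.27, 1.78 and 0.435 CPM in the RIP, with −1.67 ± 0.46 (adjusted p = 0.00924, edgeR).

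The remainders of Snhg3, Snhg8, Snhg12 and Gas5 were also lower in the YTHDF1 RIP. Their log2 fold changes were −2.64 ± 0.61, −2.07 ± 0.43, −1.49 ± 0.49 and −1.43 ± 0.56, with adjusted p of 0.00357, 0.00179, 0.0228 and 0.0483 in edgeR. Snhg3 rests on 0, 4 and 4 remaining counts in the RIP. The 0 was set, because in replicate 1 the small RNA count of 68 exceeded the host count of 67. Members were not filtered again on their reduced counts. Snhg6 kept its value and Snhg14 its 4.74. Without replicate 1 of the YTHDF1 RIP as well, 6 members were called lower, and Gas5, at −1.54, was not (adjusted p = 0.0799, edgeR). The share of all genes called in that fit is not given.

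In the other RIPs the removal changed the direction of Snhg20. Its remainder was 2.66, 5.23 and 5.59 CPM in the YTHDF2 RIP and 5.52, 4.48 and 4.17 CPM in the YTHDF3 RIP, so that the YTHDF3 libraries lay above all inputs. The log2 fold change went from −1.14 to 0.33 for YTHDF2 and from −1.39 to 0.40 for YTHDF3, and neither was called. Snhg8 went the other way: its remainder was 0.505, 0.222 and 0.562 CPM in the YTHDF3 RIP against 3.65, 4.25 and 4.71 CPM in input. That is a log2 fold change of −3.26 ± 0.44 (adjusted p = 0.000181, edgeR), a 9.58-fold fall. This remainder rests on 13, 6 and 17 counts in the YTHDF3 RIP. The whole count of Snhg8 was at −0.55 there with the length trend removed and was not called. Snhg17 kept its calls, at 1.62 in YTHDF2 and 1.11 in YTHDF3. Between the RIPs, Snhg20 was now lower in YTHDF1 than in YTHDF2, with a log2 difference of −2 ± 0.46 (adjusted p = 0.00766, edgeR), and than in YTHDF3, with −2.07 ± 0.45 (adjusted p = 0.0074, edgeR). Snhg1 (−1.24 and −1.19) and, against YTHDF3, Snhg3 (−2.14) passed as lower as well, though without replicate 1 of the YTHDF1 RIP Snhg1 did not. The remainder of Snhg8 was higher in YTHDF2 than in YTHDF3 by 2.10 ± 0.45 (adjusted p = 0.0194, edgeR).

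**Figure D4:**
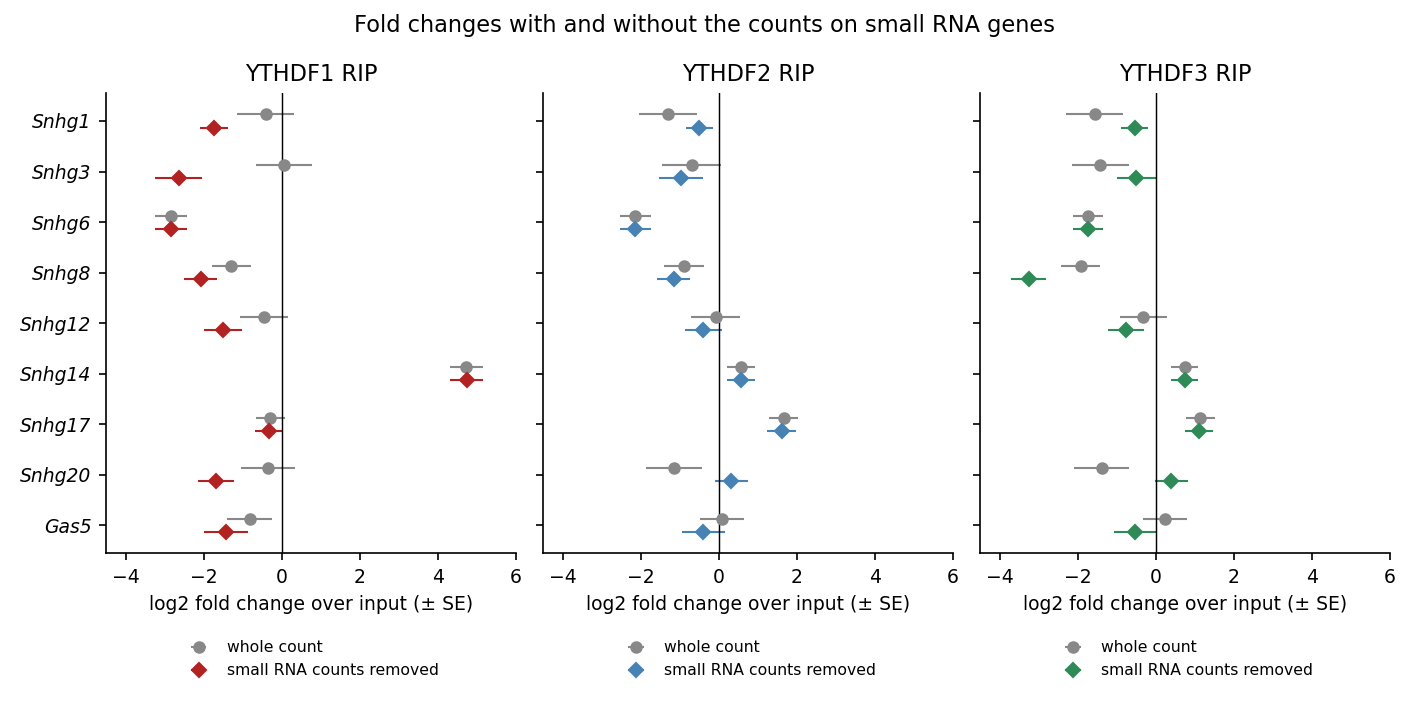
Log2 fold change over input with its SE for the whole host count (grey circles) and after removal of the counts on small RNA genes (coloured diamonds), in each RIP. In the YTHDF1 RIP the diamonds of Snhg1, Snhg3 and Snhg20 lie at −1.74, −2.64 and −1.67 with the circles near 0, and in the YTHDF3 RIP the diamond of Snhg20 lies at 0.40 and that of Snhg8 at −3.26.

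The small RNA genes printed above had their own changes. Snord22 fell in the YTHDF3 RIP by 3.13 on the log2 scale (adjusted p = 0.0224, edgeR), with 44, 39 and 66 counts against 192, 320 and 82 in shallower input libraries. Gm26083 fell there by 3.30 (adjusted p = 0.0084, edgeR), with 41, 25 and 33 counts against 154, 180 and 101, and it overlaps the miRNA gene Mir6516, with which it shares fragments. With the length trend removed neither passed, at −1.28 for Snord22 and −1.39 for Gm26083. Snord22 also missed the threshold without Input replicate 2 (−2.71) or without any 1 of the YTHDF3 RIP libraries (−2.97 to −3.30, adjusted p up to 0.0795, edgeR). Gm26003, in Snhg17, had 1, 2 and 0 counts in input, 8, 16 and 15 with YTHDF2 and 27, 28 and 29 with YTHDF3. It passed the filter on low counts through the RIPs where it is high, so neither a call nor a fold change is given.

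Snora24 was at −0.06 ± 0.81 on the log2 scale in the YTHDF3 RIP, where the remainder of its host Snhg8 fell, and at 1.83 with the length trend removed (adjusted p = 0.0597, edgeR). Gm22357, the most counted small RNA gene of Gas5 in the YTHDF3 RIP beside Gm23212, had 105, 98 and 187 counts there and 12, 17 and 18 in input. The log2 fold change of Gm22357 was 1.78 ± 0.79 (adjusted p = 0.0939, edgeR), and it passed when the 3 YTHDF3 RIP and 3 input libraries were fitted alone (1.85), without replicate 1 or replicate 3 of the YTHDF1 RIP (1.78), and with the length trend removed (3.49). Of the 208 snoRNA genes inside Snhg14, 2 overlap its exons, and they gave at most 4 counts in any library, so the log2 fold change of Snhg14 in the YTHDF1 RIP was 4.74 with and without them.

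Protein-coding genes overlap Snhg14 on both strands. Ube3a, an imprinted ubiquitin ligase gene on the opposite strand, shares 1803 bases with its exons, and the counting used strand. Ube3a rose in the YTHDF1 RIP as well, from 130 ± 20 to 1305 ± 840 CPM (SD, n = 3), with a log2 fold change of 3.32 ± 0.43 (adjusted p = 9.22e-05, edgeR). It was 2.66 without replicate 2 of the YTHDF1 RIP and 1.74 with the length trend removed, and still called. Gm38393, on the same strand, shares 27 bases with Snhg14. Gm38393 rose by 2.41 ± 0.37 in the YTHDF1 RIP. The part of shared fragments in these values was not tested.

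The starts of the host genes were read from RefSeq promoter windows in build GRCm38.p6, because a start with C and a run of pyrimidines marks the messages of the translation machinery. Of 10 listed starts of 8 members, 2 began with C followed by 4 or more pyrimidines (C or T), as did 2.51% of the 32851 starts in the table. The 2 starts are printed as the first 30 bases of the RNA's sense strand, with the pyrimidine run in capitals. That of Snhg8 lies at chr3:123508307-123508336 on the minus strand and the downstream start of Gas5 at chr1:161035166-161035195 on the plus strand.
Snhg8: CTCTTTggctgcgatccgcctacgagtatg
Gas5: CTTTCggagctgtgcggcattctgagcagg

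The letters GGACT, the most frequent core of m6A sites, were searched on the sense strand of the longest annotated transcript without a retained intron. Snhg17 held 6 matches (1.91 per kilobase), more per kilobase than 87.0% of the genes tested. Snhg20 held 6 (2.79 per kilobase), more than 96.6%. Snhg6, Snhg14 and Gas5 held 1 match each, which is 1.225, 0.146 and 1.504 per kilobase. These values exceeded those of 63.6%, 15.1% and 75.8% of the genes tested. The transcript of Snhg14 was the longest of the members, at 6861 bases. Snhg1, Snhg3, Snhg8 and Snhg12 held no match, whereas 84.9% of 17115 tested genes with a transcript held at least 1 and their median was 0.986 per kilobase. The transcripts searched for these 4 members were 709, 581, 528 and 1538 bases long. A short transcript has fewer places for a match, and the share of 84.9% was not adjusted for length. A match is not a methylated site, and m6A was not measured in these libraries. Snhg14 has 15 annotated isoforms and 26093 counted exonic bases, of which only the 6861 of this transcript were searched. Shown with the bases around them are the single match in that transcript of Snhg14, which rose with YTHDF1, and 1 of the 6 of Snhg17. Snhg17 rose with YTHDF2 and YTHDF3. The windows lie at transcript bases 5111 to 5171 and 1343 to 1403, with the match in capitals.
Snhg14: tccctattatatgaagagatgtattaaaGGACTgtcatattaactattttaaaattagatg
Snhg17: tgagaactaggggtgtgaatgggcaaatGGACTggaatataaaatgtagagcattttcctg

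Pearson correlations of log2 CPM over the 12 libraries name the genes most like each member, as a description over 4 groups that share libraries and depth. Snhg1, Snhg20 and Snhg3 resembled each other, with 0.98 between Snhg1 and Snhg20, 0.96 between Snhg3 and Snhg20 and 0.96 between Snhg3 and Snhg1. Their next neighbours were Snord22, at 0.93 with Snhg3 and 0.91 with Snhg20, and the small nuclear RNA genes Gm22042 and Gm25360, at 0.89 and 0.88 with Snhg1. Snhg14 was most like the protein-coding genes Zfp458, Cpeb2 and Ptprd, each at 0.99. Snhg17 was most like Lime1 (0.98) and Pcgf6 (0.98), and Snhg6 was most like Rbis (0.97), Mtch2 (0.96) and Dynlt1f (0.96). The gene most like Snhg8 was Rps3 (0.95), itself a snoRNA host, and Gas5 was the gene most like Snhg12 (0.91).

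Other genes of the pathway were counted by lists. Of 10 other non-coding snoRNA hosts tested, 2 rose and 5 fell with YTHDF1, 1 rose and 1 fell with YTHDF2, and 1 rose and 3 fell with YTHDF3. Of all genes tested, 27.2%, 15.7% and 16.4% were called higher and 25.8%, 19% and 23% lower against input, which holds for each list here. With the length trend removed, 1 of these hosts fell with YTHDF1 in place of 5 and the median went from −1.14 to −0.28, and 0 rose and 0 fell with YTHDF2. With YTHDF3, 2 then rose and 1 fell. The medians with YTHDF2 and YTHDF3 changed direction, from −0.35 and −0.22 to 0.23 and 0.53. Snhg11, a neuronal lncRNA, rose in all 3, by 6.00, 1.64 and 1.81 on the log2 scale, but with the length trend removed it passed with YTHDF1 alone. Snhg18 was lower in all 3, at −1.84, −1.92 and −2.24, and with the length trend removed it did not pass with YTHDF2 (−1.43).

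Protein-coding hosts, most of them genes of ribosomal proteins and translation factors, were depleted in larger numbers. Of 31 tested, 26 were called lower with YTHDF1, 24 with YTHDF2 and 25 with YTHDF3, and 0, 1 and 0 higher. Their median log2 fold changes were −2.25, −1.86 and −3.11, and stayed below 0 under every other scaling. Rps12 had the lowest value with YTHDF1 (−3.36), Rpsa with YTHDF2 (−3.54) and Tpt1 with YTHDF3 (−4.41). Nop56 was the 1 called higher, at 1.06 in the YTHDF2 RIP.

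Of the 8 genes of snoRNP proteins, which package snoRNAs, 3 were called lower in each RIP and 1, 1 and 0 higher, with medians of −0.16 (0.05 with the length trend removed), −0.31 and −0.67. Nop10, a protein of H/ACA particles, had the lowest value in each, with −2.79, −3.16 and −3.74. Of the 10 NMD factors, 6 rose and 1 fell with YTHDF1, 4 rose and 0 fell with YTHDF2, and 5 rose and 1 fell with YTHDF3. With library size alone these counts were 5 and 3 with YTHDF1 and 8 and 0 with YTHDF3, and with the length trend removed the median with YTHDF1 went from 0.96 to 0.42. Upf1, the central helicase of the pathway, rose by 1.74 with YTHDF1, and Upf3a fell by 0.99.

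The last list held lncRNAs known for retention in the nucleus. Of 7 tested, 0 rose and 2 fell with YTHDF1, 3 rose and 0 fell with YTHDF2, and 1 of each passed with YTHDF3. Their medians were −0.77, 1.46 and 0.74. With the length trend removed, 6 fell with YTHDF1 and the median with YTHDF3 was 0.003, and 5 rose with YTHDF2 in DESeq2 or with the replicate block. Malat1, a lncRNA of nuclear speckles, fell by 2.91 with YTHDF1 (adjusted p = 0.00069, edgeR).

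**Figure D5:**
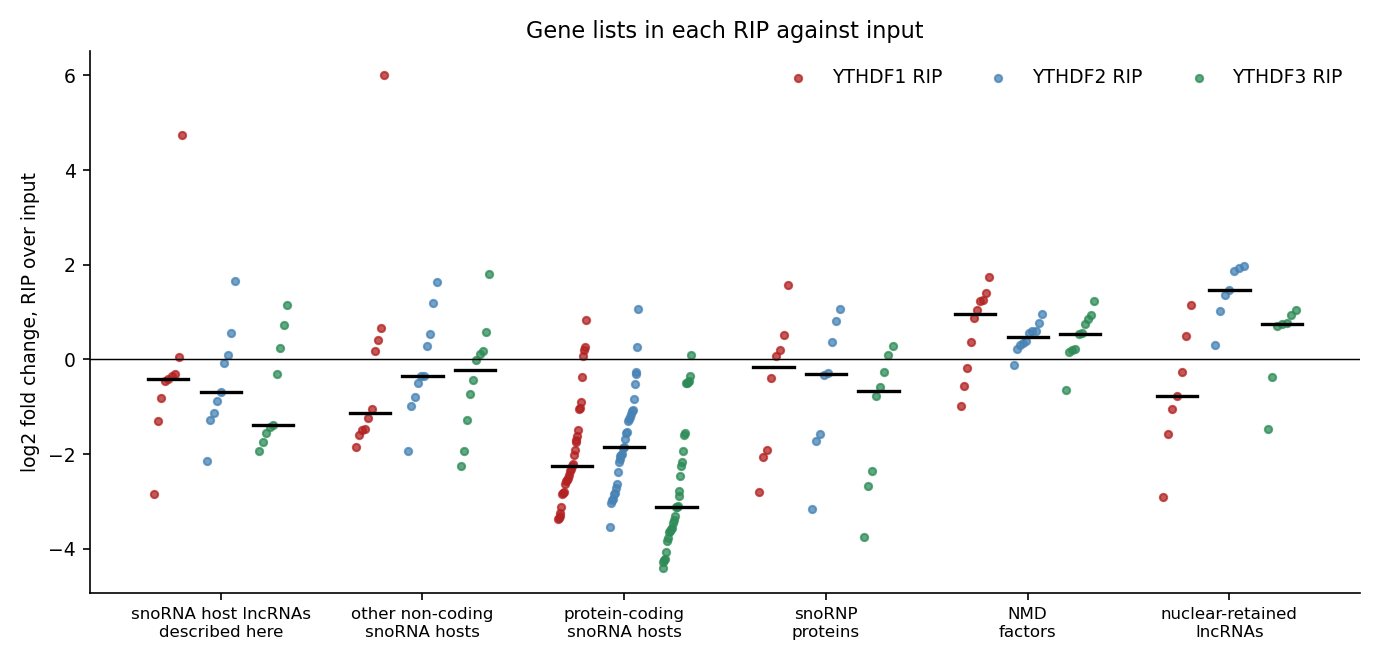
Log2 fold change over input of every tested gene of each list in the 3 RIPs, with a point for each gene and a line at the list's median. Protein-coding snoRNA hosts lie mostly below 0 with medians of −2.25, −1.86 and −3.11, whereas the NMD factors have medians of 0.96, 0.48 and 0.54.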

How the data were processed

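The authors made stranded total-RNA libraries (SMARTer Stranded Total RNA-Seq, Pico input) and used, per the submitters' processing notes, cutadapt 3.4, UMI-tools 1.1.1, STAR 2.7.7a and featureCounts 2.0.1 on GRCm38. They deposited raw counts per gene with Ensembl release 97. Per the file headers, counting was reverse stranded, included every alignment of a multi-mapping fragment and counted a fragment for each overlapping gene, so repeated and overlapping genes share counts. The authors' DESeq2 tables per protein (means, log2 fold changes, statistics, p-values) were used only for gene symbols.

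Members and lists were chosen with earlier results of these data known. Genes with a mean of at least 10 normalized counts were kept. Counts were scaled by TMM and fitted in 1 edgeR 4.0.16 quasi-likelihood model (R 4.3.3) of the 12 libraries with group as the term, and p-values were adjusted by Benjamini-Hochberg over all 17126 genes. Log2 CPM used a prior count of 2, and CPM used TMM-scaled library sizes. SE is the log2 fold change divided by the square root of F. The common coefficient of variation was 0.323. The fit by group was tested on simulated data with known changes in the YTHDF1 RIP, and the alternatives listed below were not.

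Same-numbered libraries share a lysate per the methods. Deviations from the group means correlated above 0.1 in all 3 pairs for YTHDF3 and input (0.829, 0.528 and 0.804), but not for YTHDF1 (0.0907, −0.267 and −0.322) or YTHDF2 with input. Alternatives were DESeq2 1.42.0, its size factors, library size alone, TMM over protein-coding genes, a minimum mean of 50, no minimum, a block for the replicate number, fits of 2 groups, removal of a length trend (loess, span 0.3), removal of snoRNA gene counts, and leaving out each library. All members were named in every comparison. Also named were the 3 most alike genes with a mean of at least 100 normalized counts, the most counted small RNA genes, and at most 3 genes a list and RIP (the most abundant, highest and lowest). One of these alike genes is not reported here. Exceptions chosen after values were seen are Gm26083, Snora24, Gm26003, Gm22357, Snora73a, Mir6516, Ube3a and Gm38393.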

Additional observations from a re-analysis of the deposited data

Results flagged for a closer look

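Of the differences between RIPs under the same contrast with input, 4 passed a direct test. Snhg14 was higher in the YTHDF1 RIP than in the YTHDF2 RIP by 4.17 and than in the YTHDF3 RIP by 4 on the log2 scale. Snhg17 had log2 differences of −1.96 between YTHDF1 and YTHDF2 and −1.44 between YTHDF1 and YTHDF3. With 3 libraries a group, no test for a single library apart from its group was run.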

How the results depend on the processing

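The calls of Snhg14 in the YTHDF1 RIP against input and against both other RIPs, of Snhg6 in the YTHDF1 and YTHDF2 RIPs and of Snhg17 in the YTHDF2 RIP held in all 14 other settings and in all 12 fits that left out 1 library. The cause of the changes below was not tested, and the removal of all small RNA counts was chosen after seeing the data. Over the log2 values of members in the other settings, 619 kept their direction and side of the threshold, 44 newly passed, 14 no longer passed and 67 changed direction. With 1 library left out these numbers were 595, 13, 15 and 25. Each number of members called is small, so 1 member can move it by more than 1.5 times. Low counts limit Snhg3, Snhg6 and Snhg8 most, and a minimum mean of 50 removed Snhg3 and Snhg8. Library size alone moved the median over all tested genes, on the log2 scale, from 0.02, 0.02 and 0.05 to −0.38, 0.09 and 0.38 for YTHDF1, YTHDF2 and YTHDF3 against input, and from 0.03, 0.19 and 0.07 to −0.44, −0.54 and −0.19 between the RIPs. The genes called higher and lower went from 4662 and 4414 to 3087 and 6219 for YTHDF1, from 2693 and 3247 to 2911 and 3052 for YTHDF2, and from 2817 and 3940 to 4822 and 3031 for YTHDF3. Between RIPs they went from 1949 and 1045 to 1068 and 2796 (YTHDF1 and YTHDF2), from 1858 and 621 to 767 and 3440 (YTHDF1 and YTHDF3) and from 676 and 198 to 482 and 718 (YTHDF2 and YTHDF3). TMM over protein-coding genes gave 3674 and 5520 for YTHDF1, with a median of −0.22, 1597 and 1393 for YTHDF1 against YTHDF2 and 1366 and 972 against YTHDF3.

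Members called lower in the YTHDF1 RIP against input numbered 1 with DESeq2 size factors, a minimum mean of 50, the replicate block, the 2 groups alone (with or without the block) and the length trend removed (with or without the block), 6 with snoRNA gene counts removed, 7 with all small RNA gene counts removed and 6 when YTHDF1 RIP replicate 1 was also left out. For YTHDF2 against input, members lower numbered 3 with no filter, 4 with the 2 groups alone, 3 with the block added and 2 with snoRNA counts removed. For YTHDF3 against input, members higher numbered 2 with library size alone, no filter and the 2 groups alone (with or without the block) and 0 with the length trend removed (with or without the block). Members lower numbered 5 with no filter and the 2 groups alone (with or without the block), 1 with a minimum mean of 50 and 0 with the length trend removed (with or without the block). For YTHDF1 against YTHDF2, members lower numbered 2, 3 and 2 with the 3 small RNA removals in the order above. For YTHDF1 against YTHDF3, members lower numbered 2 with DESeq2, TMM over protein-coding genes, a minimum mean of 50 and the length trend removed (with or without the block), 3 with library size alone and no filter, 0 with the 2 groups alone (with or without the block), and 3, 4 and 3 with the small RNA removals. For YTHDF2 against YTHDF3, members higher numbered 1, 1 and 1 with these removals. With 1 library left out, members lower ranged from 1 to 5 (YTHDF1 against input), 1 to 2 (YTHDF2) and 2 to 5 (YTHDF3), members higher in YTHDF3 from 0 to 2, and for YTHDF1 against YTHDF3 members higher from 1 to 3 and lower from 1 to 2. In a joint fit the replicate block changed no call other than that of Snhg8 in the YTHDF1 RIP (−1.36). For settings other than library size alone and TMM over protein-coding genes, the number of all genes called is not given.

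Log2 values that changed direction belonged to members not called on their whole counts, although with small RNA counts removed Snhg3 (YTHDF1 against input and against YTHDF3), Snhg1 and Snhg20 (YTHDF1 against both other RIPs) passed in the new direction, Snhg1 not without YTHDF1 RIP replicate 1 and Snhg20 only where all small RNA counts were removed. Snhg3 also passed in the YTHDF1 RIP at −1.62 without YTHDF1 RIP replicate 1. In the YTHDF1 RIP against input, Snhg3 (0.06) became −0.21 with library size alone, −0.15 with TMM over protein-coding genes, −0.09 with no filter, −0.25 with the replicate block, −0.00072 with the 2 groups alone, −0.79 with the block added, −2.64 with snoRNA or all small RNA counts removed and −2.30 without YTHDF1 RIP replicate 1 as well. In the YTHDF2 RIP, Gas5 became −0.02 with TMM over protein-coding genes and no filter and −0.39 under the 3 small RNA removals, and Snhg20 became 0.33 with all small RNA counts removed, with or without that library. With the length trend removed, Snhg3 was 0.04, Snhg12 0.13 and Snhg14 −0.0084, with the block added Snhg3 was 0.14 and Snhg12 0.11, and with library size alone Snhg12 was 0.0053. In the YTHDF3 RIP, Snhg12 was 0.11 and Snhg14 −0.12 with the length trend removed, 0.14 and −0.10 with the block added, and Snhg12 was 0.03 with library size alone. There Gas5 was −0.52 under the 3 small RNA removals and Snhg20 0.40 with all small RNA counts removed, with or without that library.

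Between YTHDF1 and YTHDF2, Snhg1, Snhg3 and Snhg20 were −0.03, −0.02 and −0.04 with the 2 groups alone and the replicate block. Snhg1 and Snhg3 were −1.24 and −1.67 with snoRNA or all small RNA counts removed and −1.15 and −1.33 without that library as well, and Snhg20 was −2 and −2.09 under the latter 2. Between YTHDF1 and YTHDF3, Snhg1 and Snhg3 were −1.19 and −2.14, then −1.10 and −1.80, and Snhg20 −2.07 and −2.16, under the same removals, and Snhg8 was −0.03 with library size alone. Between YTHDF2 and YTHDF3, Snhg3 was −0.47 and Gas5 0.13 under the 3 removals and Snhg20 −0.07 under the latter 2. There library size alone gave Snhg1 −0.00061, Snhg12 −0.02 and Snhg20 −0.01, no filter gave Snhg12 −0.0013, the length trend removed gave Snhg14 0.11, and the block added gave Snhg14 0.10 and Snhg12 −0.03.

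With 1 library left out, the values that changed direction ranged in the YTHDF1 RIP against input from −2.19 to 0.12 (Snhg1), −1.62 to 0.63 (Snhg3), −1.45 to 0.09 (Snhg12), −0.84 to 0.09 (Snhg17) and −1.93 to 0.18 (Snhg20), and in the YTHDF2 RIP from −0.46 to 0.13 (Snhg12) and −0.25 to 0.24 (Gas5). Between YTHDF1 and YTHDF2 they ranged from −0.91 to 1.41 (Snhg1), −0.93 to 1.31 (Snhg3), −1.20 to 0.08 (Snhg8), −1.38 to 0.16 (Snhg12) and −0.79 to 1.32 (Snhg20). Between YTHDF1 and YTHDF3 they ranged from −0.63 to 1.68 (Snhg1), −0.20 to 2.05 (Snhg3), −0.16 to 1.12 (Snhg8), −1.14 to 0.40 (Snhg12) and −0.54 to 1.57 (Snhg20). Between YTHDF2 and YTHDF3 they ranged from −0.14 to 0.47 (Snhg12), −0.33 to 0.12 (Snhg14) and −0.49 to 0.06 (Gas5). For Snhg1, Snhg3 and Snhg20 the change came with YTHDF1 RIP replicate 1 or replicate 3 left out, apart from Snhg3 in the YTHDF1 RIP, which was also −0.10 without Input replicate 3. Snora24 in the YTHDF3 RIP (−0.06) was 0.28 with library size alone, 0.08 with no filter, 0.02 with the 2 groups alone and 0.03 with the block added, 1.83 with the length trend removed (with or without the block), and −0.36 to 0.23 with 1 library left out, and passed in none of these.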
